A study of Mus musculus with 8 samples.

Results

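Translation initiation factors are the proteins that bring the small ribosomal subunit, the initiator tRNA and an mRNA together before a protein chain is begun. Their genes were taken as all those with a symbol from Eif1 to Eif6, leaving out the Eif2ak kinases, in the annotation of the array. This gave 37 genes of the 17097 with a named probe set. They were represented by 82 probe sets that name 1 of them alone, and the brightest probe set of each gene stood for it. Another 5 probe sets name a gene with such a symbol together with a second gene and were not used. Eif5b and Eif4a2 were named only by probe sets of that kind, so they are not among the 37.

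The arrays hold RNA of dermal fibroblasts from female mice. HFD mice ate a high fat diet and ND mice a normal diet, each for 6 months beginning at 2 months of age, and no strain or genotype is given in the sources used here. The cells were sorted from collagenase-digested dermis as positive for Pdgfra and CD34 and negative for markers of blood, endothelial and epithelial cells, and RNA of 10000 cells was amplified over 20 cycles. HFD 1 to 4 were compared with ND 1 to 3, because the labels exclude ND 4 by quality control. The labels number the specimens but do not say that each is 1 mouse, so p-values measure the spread between these arrays, and their number limits the precision. The comparison asks how dermal fibroblasts differ after a high fat diet.

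In textbook terms, eIF2 carries the initiator tRNA to the small subunit as a complex with GTP, and eIF2B reloads eIF2 with GTP after each round. Stress kinases phosphorylate eIF2 and thereby block eIF2B, which is the core of the integrated stress response. eIF4E binds the mRNA cap, eIF4G is the scaffold and eIF4A the helicase that opens the leader, while eIF3 joins them to the ribosome. The 4E-BP proteins hold eIF4E away from eIF4G until the kinase mTORC1, which responds to nutrients and insulin, phosphorylates them.

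The probe set of the sort gene Cd34 was at 12.10 ± 0.05 log2 in HFD (SD, n = 4) and 12.08 ± 0.02 in ND (SD, n = 3), and that of Pdgfra, below the median gene, at 6.27 ± 0.21 in HFD and 5.92 ± 0.12 in ND. Pdgfra was higher on every HFD array without passing (0.34, adjusted p = 0.103). Of 10 fibroblast markers 1 passed (10%, against 5.35% of all genes and 9.45% of those at or above the median signal). It was Lum, which encodes the matrix protein lumican and was lower in HFD (−0.34, adjusted p = 0.0359). Col1a2 and Dcn were also lower on every HFD array without passing, while 6 of the 10 changes were positive. All values are log2 expression as deposited, and a change is the HFD mean minus the ND mean. The mean of 17 measured keratinocyte markers ranged from 6.37 to 7.48 on the HFD arrays and from 6.30 to 6.66 on the ND arrays. All 17 had a positive change, with a median of 0.25, and none passed the threshold in limma (4 at an unadjusted p under 0.05). The changes ran from 0.03 for Epcam, a marker used against epithelial cells in the sort, to 1.55 for Perp. Of the 17, 10 were below the median gene, Epcam among them. Dsp, Krt5 and Krt10 were above it, at means of 8.80, 8.68 and 9.58, with changes of 1.41, 0.855 and 0.59. As a sign of RNA quality, signal of the 5′ control probe sets was taken from that of the 3′ ones, averaged over Gapdh and Actb. This 3′ minus 5′ difference lay between −0.44 and −0.38 on the HFD arrays and between −0.34 and −0.18 on the ND arrays, so the diets did not overlap in it. ND 3 lay farthest from the HFD arrays in that measure.

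Of the 37 genes, 3 rose and 3 fell in HFD fibroblasts relative to ND, and 31 did not pass (limma, adjusted p under 0.05 over all genes). Eif2b4, Eif3b and Eif6 rose to between 1.36 and 1.42 times the ND value, and Eif1a, Eif4ebp2 and Eif2s2 fell to between 0.590 and 0.739 times. The 6 genes are 16.2% of the 37, where 5.35% of all genes and 9.45% of the genes at or above the median signal passed (2.62% of all genes higher and 2.73% lower). In a fit restricted to the 8554 genes at or above the median signal, 6 of 35 members and 1387 of the 8554 genes passed, which are similar shares. The arrays of the diets did not overlap for 11 members, 7 higher and 4 lower, which is 29.7% against 17.9% of all genes and 27.6% of those at or above the median signal. Over all genes 9.95% were separate and higher and 7.99% separate and lower. By that measure the members lay near other bright genes. An unadjusted p under 0.05 was reached by 12 members (32.4%, against 22.1% of all genes). Of the 37 changes 23 were positive (62.2%, against 56% of all genes) and 14 negative. Their median was 0.07 log2, against 0.02 over all genes. In sorted cells, fewer cells of a type and less RNA per cell cannot be told apart.

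**Figure D1:**
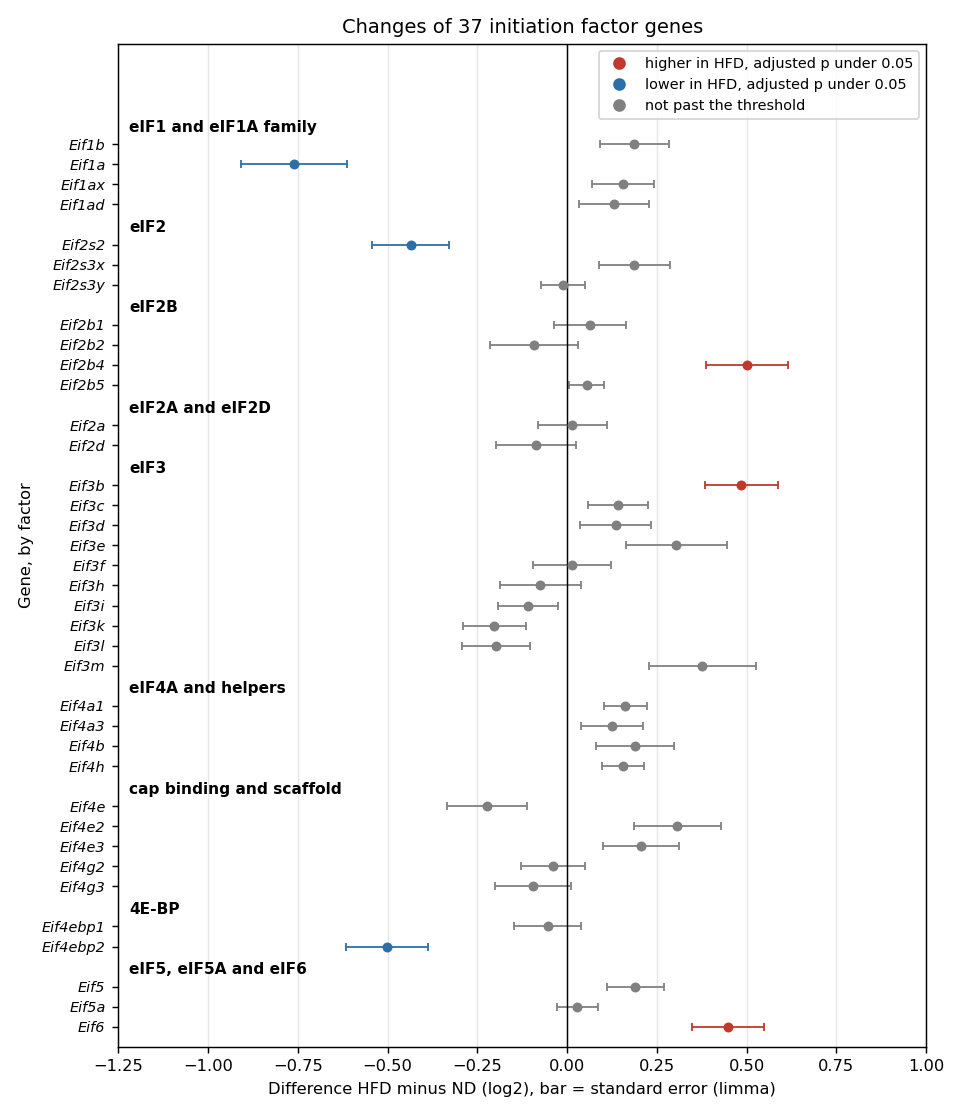
Change of each of the 37 initiation factor genes in log2 units, HFD minus ND, on the x axis, with genes grouped by factor down the page, points for the limma estimate and bars for its standard error (4 HFD and 3 ND arrays). The 3 red points to the right (Eif2b4, Eif3b, Eif6) and the 3 blue points to the left (Eif1a, Eif2s2, Eif4ebp2) passed an adjusted p of 0.05, and the 31 grey ones did not.

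Eif2b4 encodes the delta subunit of eIF2B, the exchange factor that eIF2 needs. It had 7.92, 8.15, 7.79 and 7.97 on HFD 1 to 4, against 7.50, 7.61 and 7.26 on ND 1 to 3. Every HFD array was above every ND array, with a change of 0.50 (SE 0.11, adjusted p = 0.0389). No second probe set names Eif2b4. The other eIF2B subunits on the arrays, Eif2b1 (0.07), Eif2b2 (−0.09) and Eif2b5 (0.05), did not pass. The Eif2b5 probe set was dim, at a mean of 4.85.

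Eif3b encodes a core subunit of eIF3 that scaffolds the complex. It was at 9.69, 9.50, 9.44 and 9.75 on HFD 1 to 4, against 9.15, 9.19 and 8.99 on ND 1 to 3. The diets did not overlap, and the change was 0.48 (SE 0.10, adjusted p = 0.0325). Eif3b also has a single probe set.

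Eif6 encodes a factor that keeps the large ribosomal subunit from joining the small one too early, and that is also needed to make large subunits. Its values were 9.15, 9.24, 9.36 and 9.47 on HFD 1 to 4, against 8.86, 8.96 and 8.75 on ND 1 to 3. The groups did not overlap, with a change of 0.45 (SE 0.10, adjusted p = 0.0379). A dimmer probe set of Eif6 overlapped between the diets and differed by 0.05 (unadjusted p = 0.631).

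Eif1a encodes eIF1A, which helps the scanning subunit settle on the start codon. It showed 9.17, 9.18, 9.02 and 8.67 on HFD 1 to 4, against 9.63, 9.63 and 10.05 on ND 1 to 3. All HFD arrays were lower, by −0.76 log2 on average (SE 0.15, adjusted p = 0.0278), the largest change of the 37 genes in size. The other Eif1a probe set, nearly as bright with a mean of 9.24, had 9.39, 9.33, 9.18 and 9.33 in HFD, against 9.13, 9.22 and 9.11 in ND. It overlapped between the diets and differed by 0.15 in the other direction (unadjusted p = 0.099). The probe set with the fall carries the suffix of probe sets that can match transcripts of several genes, and Eif1ax on the X chromosome is a close relative. Eif1ax was at 9.58, 9.38, 9.38 and 9.48 in HFD, against 9.36, 9.32 and 9.22 in ND, without overlap but not past the threshold (0.16, adjusted p = 0.338).

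Eif4ebp2 encodes 4E-BP2, a repressor of eIF4E. On its brightest probe set it had 9.47, 9.63, 9.34 and 9.25 on HFD 1 to 4, against 9.77, 9.90 and 10.10 on ND 1 to 3. All HFD arrays were lower on that probe set, with a change of −0.50 (SE 0.11, adjusted p = 0.0386). The 4 other probe sets of Eif4ebp2 differed by −0.05, 0.22, 0.20 and 0.47, from brighter to dimmer. On the dimmest, at a mean of 7.52, the HFD arrays had 7.54, 7.85, 7.68 and 7.83, against 7.36, 7.20 and 7.20 on the ND arrays, all higher in HFD (adjusted p = 0.0342 over all probe sets). Probe sets of this 1 gene therefore passed in opposite directions, and the mean over the 5 differed by 0.07 (adjusted p = 0.717). Its relative Eif4ebp1, which encodes 4E-BP1, was at 7.61, 7.80, 7.86 and 7.70 in HFD, against 7.77, 7.90 and 7.72 in ND, and overlapped (−0.05, adjusted p = 0.799).

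Eif2s2 encodes the beta subunit of eIF2. Its values were 10.06, 9.81, 9.83 and 9.93 on HFD 1 to 4, against 10.33, 10.15 and 10.55 on ND 1 to 3. The HFD arrays were all lower, with a change of −0.44 (SE 0.11, adjusted p = 0.0459). A second probe set, dim at 5.06, differed by −0.17. The gamma subunit gene Eif2s3x, on the X chromosome, had a change of 0.19 that did not pass (adjusted p = 0.304), and its other probe sets differed by 0.09 and 0.34. Its Y-linked copy Eif2s3y, absent from female genomes, read 4.22, 4.32, 4.43 and 4.28 in HFD, against 4.23, 4.29 and 4.45 in ND, the signal of that probe set in cells that do not carry its gene.

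**Figure D2:**
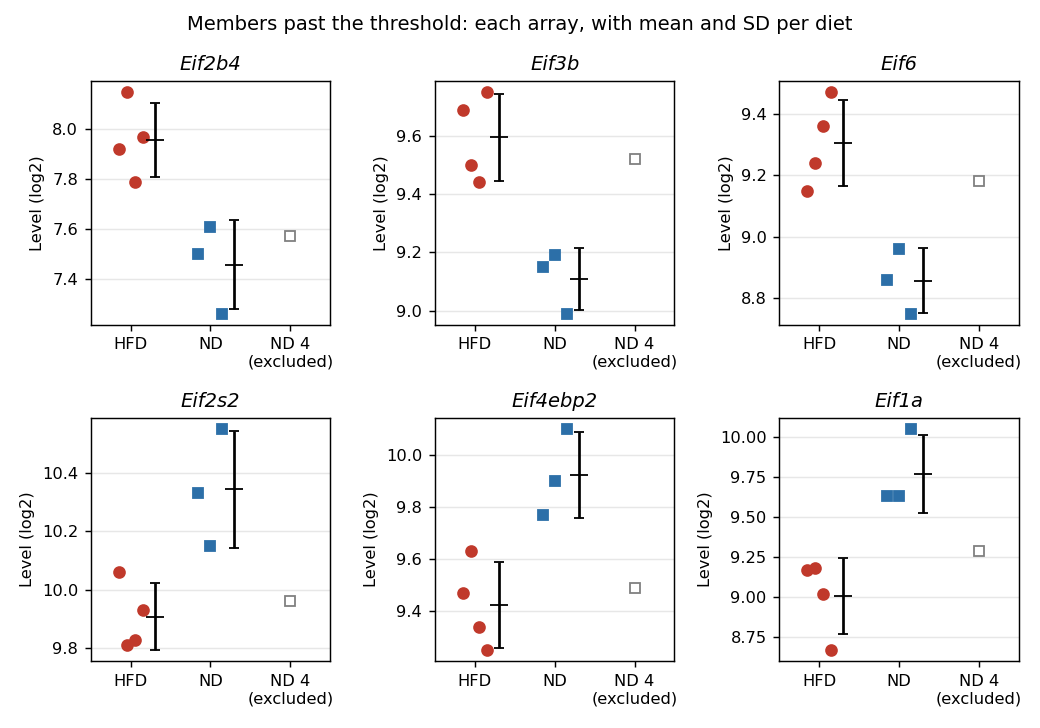
Level of the 6 genes past the threshold in log2 units on the y axis, with HFD 1 to 4 as red circles, ND 1 to 3 as blue squares, the mean and SD of each diet as black bars, and ND 4, which was not in the comparison, as an open square. The HFD and ND arrays do not overlap in any of the 6 panels, and in each the ND array farthest from HFD is the third from the left, ND 3.

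On all 6 genes ND 3 was the ND array farthest from the HFD mean, as it was for 77.5% of all genes past the threshold and for 46.3% of all genes tested. No member passed in limma without ND 3 (7 at an unadjusted p under 0.05), without HFD 3 (11) or without HFD 4 (6). The same 6 passed without HFD 1. Eif1a and Eif4ebp2 passed without HFD 2, and Eif1a, Eif2b4 and Eif2s2 without ND 2. Without ND 1, Eif1a, Eif3b and Eif4ebp2 passed, and so did Eif3e, which did not pass with all 7 arrays. With the 3′ minus 5′ difference as a covariate the changes were 0.12 for Eif2b4, 0.27 for Eif3b, 0.27 for Eif6, −0.35 for Eif1a, −0.34 for Eif4ebp2 and −0.14 for Eif2s2, and none passed in limma (adjusted p = 0.999 for each, with 1 member at an unadjusted p under 0.05). Because the diets do not overlap in that difference, its part and that of the diet cannot be told apart. With the keratinocyte mean as a covariate the 6 changes lay between −0.75 and 0.57, with the sign of each kept, and none passed in limma (adjusted p of 0.121 to 0.252, with 6 members at an unadjusted p under 0.05). The keratinocyte means of the diets overlapped, and their part in the changes was not tested further.

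**Figure D3:**
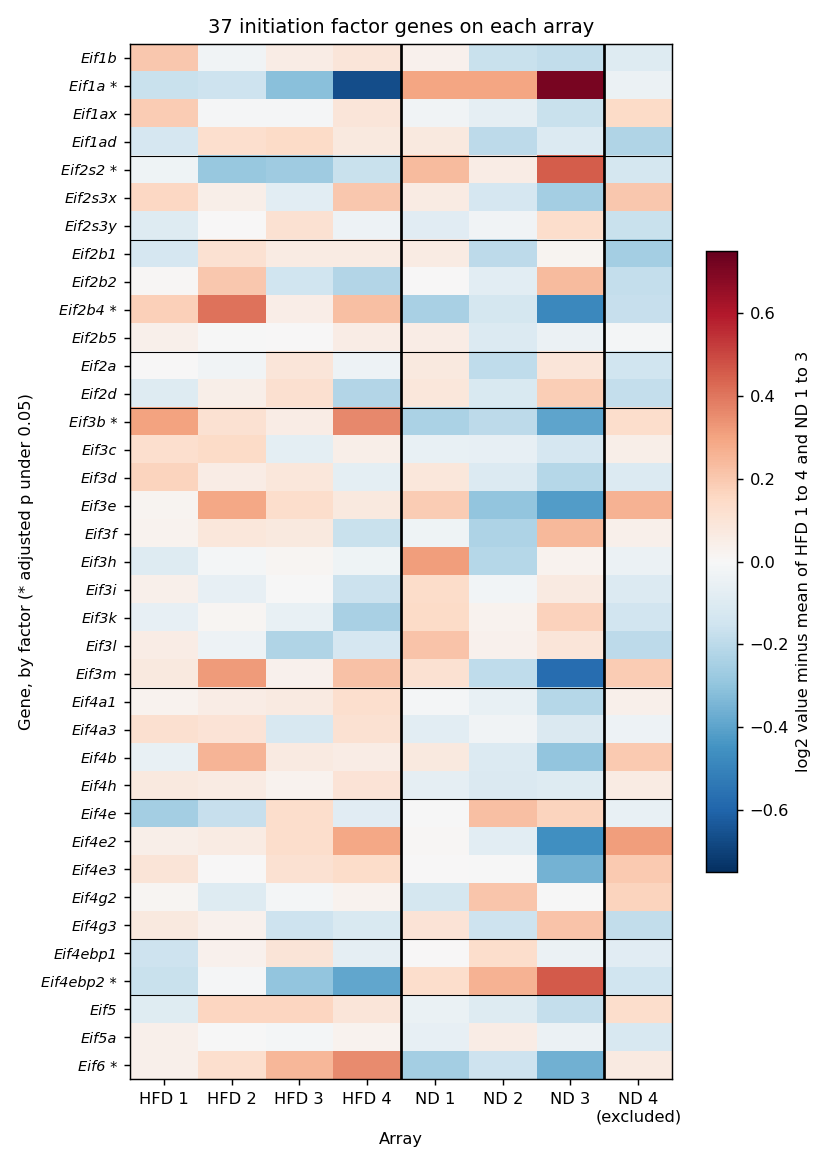
Each of the 37 genes (rows, grouped by factor, with an asterisk for adjusted p under 0.05) on each array (columns), coloured by its log2 value minus the mean of HFD 1 to 4 and ND 1 to 3. ND 3 holds the strongest colours among the ND arrays for the 6 marked genes, such as Eif1a at 10.05 and Eif2b4 at 7.26.

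Upstream sequence was available for 29 of the 37 genes, in RefSeq's GRCm38.p6 assembly. The 250 bases before the annotated start are shown for 4 of the 6 genes past the threshold, 5′ to 3′ on the strand of the gene, to set genes that rose (Eif2b4 and Eif3b) beside genes that fell (Eif4ebp2 and Eif2s2). Eif6 and Eif1a are not shown. Capitals mark matches to the motifs named after them. Eif2b4 lies at chr5:31193140-31193389 on the minus strand, Eif3b at chr5:140419055-140419304 on the plus strand, Eif4ebp2 at chr10:61452670-61452919 on the minus strand and Eif2s2 at chr2:154892907-154893156 on the minus strand.
Eif2b4: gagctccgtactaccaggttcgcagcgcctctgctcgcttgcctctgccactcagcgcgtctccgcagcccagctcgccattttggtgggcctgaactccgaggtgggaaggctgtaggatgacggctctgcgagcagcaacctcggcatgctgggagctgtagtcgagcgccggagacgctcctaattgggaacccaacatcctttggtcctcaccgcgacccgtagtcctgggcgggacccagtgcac
Eif3b: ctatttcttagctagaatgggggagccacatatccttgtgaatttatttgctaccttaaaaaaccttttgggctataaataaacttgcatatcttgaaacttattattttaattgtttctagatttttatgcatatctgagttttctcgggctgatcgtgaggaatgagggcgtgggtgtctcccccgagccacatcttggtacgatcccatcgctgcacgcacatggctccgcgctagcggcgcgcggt
Eif4ebp2: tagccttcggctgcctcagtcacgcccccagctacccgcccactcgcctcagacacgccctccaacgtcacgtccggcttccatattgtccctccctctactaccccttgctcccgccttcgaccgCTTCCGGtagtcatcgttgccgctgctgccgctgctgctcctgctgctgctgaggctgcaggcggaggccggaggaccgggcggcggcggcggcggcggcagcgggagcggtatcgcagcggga
Eif2s2: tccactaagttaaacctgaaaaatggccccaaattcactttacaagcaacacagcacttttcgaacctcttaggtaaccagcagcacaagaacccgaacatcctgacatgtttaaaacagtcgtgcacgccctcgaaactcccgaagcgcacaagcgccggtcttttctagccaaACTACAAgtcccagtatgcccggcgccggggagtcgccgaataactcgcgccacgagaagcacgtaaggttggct

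Each motif was searched on both strands in these 250 bases. The core of the ETS family of activators, CCGGAAG, was found before 8 of 29 members (27.6%), against 10.5% of the 13605 array genes with such a sequence. Eif4ebp2 holds it on the opposite strand, at position −124 relative to the start. The E-box CACGTG, bound by Myc and related factors, was found before 5 of 29 members (17.2%), Eif1b, Eif3f, Eif3k, Eif4a1 and Eif4h, against 7.58%. ACTACAA, part of the ZNF143 motif, was found before Eif2s2 and Eif3c (6.9% against 3.28%), and in Eif2s2 it lies at position −75. TGATGCAA, a site for ATF4 with C/EBP proteins, was found before none of the 29, against 0.62%. In 0 of the 29 sequences did matches of different motifs share bases. The sequences printed differ in base composition, with 44.8% G and C before Eif3b, 51.6% before Eif2s2, 64.0% before Eif2b4 and 70.0% before Eif4ebp2.

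Among the other members of the eIF1 family, Eif1b, a relative of the start codon factor eIF1, changed by 0.19 (adjusted p = 0.284) and Eif1ad, which shares a domain with eIF1A, by 0.13 (adjusted p = 0.492). Eif2a and Eif2d encode factors that can bring initiator tRNA to the ribosome outside the usual eIF2 route. Eif2a differed by 0.02 and Eif2d by −0.09, and neither passed. The main Eif2d probe set had 7.97, 8.11, 8.19 and 7.85 in HFD, against 8.15, 7.95 and 8.25 in ND. One of its dimmer probe sets had 6.62, 6.63, 6.80 and 6.49 in HFD, against 6.47, 6.53 and 6.19 in ND (0.24, unadjusted p = 0.0487). Both overlapped between the diets.

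Of 10 eIF3 subunit genes, Eif3b rose, none fell and 9 did not pass. Among all genes 5.35% passed, and among those at or above the median signal 9.45%. The 10 changes ran from −0.20 to 0.48, with 6 positive and 4 negative, where 56% of all genes had a positive change. The peripheral subunit Eif3k was lower on every HFD array, at 10.01, 10.09, 10.02 and 9.83, against 10.22, 10.10 and 10.25 in ND, but did not pass (−0.20, adjusted p = 0.204). Eif3l, whose protein pairs with eIF3k, had a change of −0.20 (adjusted p = 0.257), and its arrays overlapped. Eif3m changed by 0.38 (adjusted p = 0.169) and Eif3e by 0.30 (adjusted p = 0.241). In both of these ND 1 lay among the HFD values and ND 3 was lowest, at 8.13 for Eif3m and 8.31 for Eif3e. Eif3c (0.14), Eif3d (0.14), Eif3f (0.01, at 11.38 to 11.63 in HFD and 11.31 to 11.79 in ND), Eif3h (−0.07) and Eif3i (−0.11) changed less.

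The helicase genes and their helpers did not pass, though all 4 changes were positive, as were 56% of those of all genes. Eif4a1, the main eIF4A helicase, was at 12.50, 12.53, 12.54 and 12.60 in HFD, against 12.46, 12.42 and 12.26 in ND. These did not overlap, with a change of 0.16 (adjusted p = 0.149), and a second, also bright probe set differed by 0.02. Eif4h, which stimulates eIF4A, was at 11.58, 11.57, 11.53 and 11.61 in HFD, against 11.44, 11.40 and 11.41 in ND (0.16, adjusted p = 0.145). All 5 Eif4h probe sets were higher in HFD, by 0.12 to 0.36. The second brightest had 11.24, 11.22, 11.25 and 11.27 in HFD, against 10.95, 10.88 and 10.82 in ND, and passed when every probe set was tested (0.36, SE 0.06, adjusted p = 0.0246). Its suffix marks probes that can bind other transcripts. Eif4b, another helper, changed by 0.19 and Eif4a3, the helicase of the exon junction complex, by 0.13.

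Of the cap-binding proteins, Eif4e, the main one, was at 7.67, 7.75, 8.06 and 7.84 in HFD, against 7.92, 8.15 and 8.09 in ND. These overlapped, and the change of −0.22 did not pass (adjusted p = 0.273). Eif4e2, which encodes a cap-binding protein linked to repression, was at 9.38, 9.40, 9.47 and 9.63 in HFD, against 9.35, 9.26 and 8.88 in ND (0.31, adjusted p = 0.17). The diets did not overlap, and all 5 of its probe sets had a positive change. Eif4e3, a further cap-binding relative, had 9.28, 9.19, 9.30 and 9.32 in HFD, against 9.19, 9.18 and 8.83 in ND (0.21, adjusted p = 0.284). Its dimmer probe set had 6.80, 6.61, 6.72 and 6.78 in HFD, against 6.78, 7.25 and 7.02 in ND (−0.29, unadjusted p = 0.0282). Neither separated the diets.

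Eif4g2 encodes a scaffold related to eIF4G that lacks the part that binds eIF4E. Its brightest probe set had 10.51, 10.40, 10.48 and 10.52 in HFD, against 10.36, 10.70 and 10.49 in ND, a change of −0.04. The next brightest had 8.89, 9.26, 9.05 and 8.91 in HFD, against 9.31, 9.43 and 9.56 in ND, and the third had 9.04, 9.04, 9.08 and 9.31, against 8.97, 8.82 and 8.84. The second was lower in every HFD array (−0.41, unadjusted p = 0.00425) and the third higher (0.24, unadjusted p = 0.0309), and neither passed over all probe sets. Eif4g3, another scaffold gene, differed by −0.10.

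Eif5 stimulates the GTP hydrolysis of eIF2 at the start codon, and its gene had 5 probe sets with a positive change, from 0.05 to 0.33. Its brightest had 11.03, 11.28, 11.28 and 11.21 in HFD, against 11.07, 11.02 and 10.94 in ND, and did not pass (0.19, adjusted p = 0.195). Eif5a, whose product helps ribosomes past difficult stretches of protein, was at 11.82 to 11.87 in HFD and 11.77 to 11.89 in ND, a change of 0.03 (SE 0.06).

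**Figure D4:**
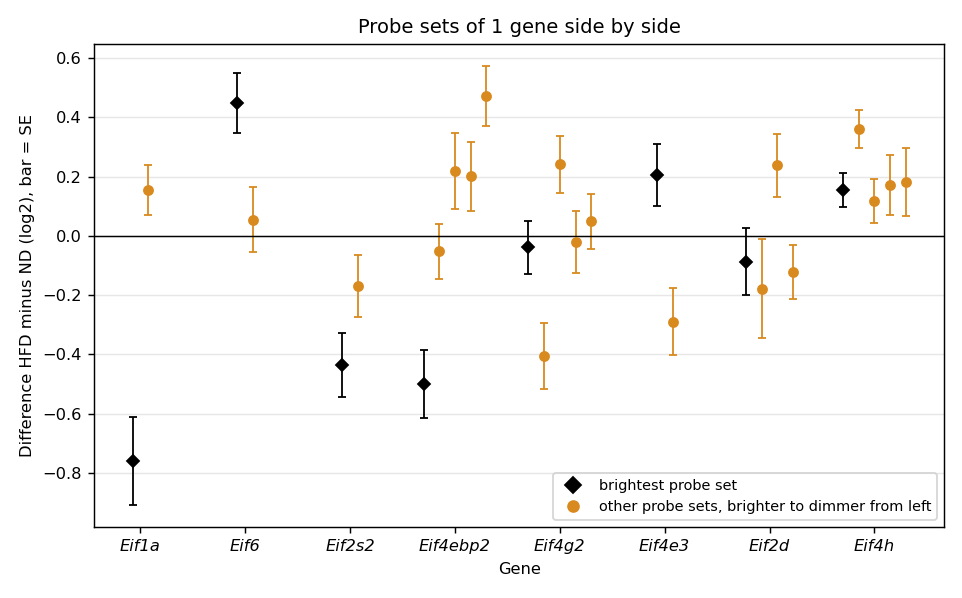
Change in log2 units (HFD minus ND, y axis) of every probe set of 8 genes (x axis), with the brightest as a black diamond, the others as orange circles from brighter to dimmer, and bars for the standard error. The probe sets of Eif4ebp2 run from −0.50 to 0.47 and those of Eif4g2 from −0.41 to 0.24, while all 5 of Eif4h lie above 0.

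Of 25 members with several probe sets, all changes had 1 sign in 13 and both signs in 10. In the other 2, Eif3c and Eif3d, the second probe set had equal means in both diets. In 4 of them, Eif4ebp2, Eif4g2, Eif4e3 and Eif2d, a dimmer probe set opposed the brightest at an unadjusted p under 0.05. The main probe set of 6 members, Eif1a, Eif3f, Eif3m, Eif4g2, Eif4h and Eif5a, is of the kind that can match transcripts of several genes.

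Among arrays of 1 diet, the 6 members past the threshold varied together in some pairs and not in others. Over the 7 arrays, after the mean of each diet was taken off, the deviations of Eif1a ran with those of Eif4ebp2 (Pearson r = 0.88) and against those of Eif6 (r = −0.89). The deviations of Eif2b4 and Eif2s2 ran against each other (r = −0.66), while r was 0.04 for Eif4ebp2 with Eif2b4 and −0.02 for Eif3b with Eif2s2. Among all members, Eif4ebp2 was most like Eif2b2 (r = 0.92) and Eif3b most like Eif1ax (r = 0.83). Over the 666 pairs of members the median was 0.06. The points share arrays, and these values describe only these 7.

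Around the initiation factors, 12 genes of eIF2 kinases, phosphatases and their partners held 1 that rose, 1 that fell and 10 that did not pass (16.7% called, against 5.35% of all genes and 9.45% of those at or above the median signal). Gcn1, which activates the eIF2 kinase GCN2 on stalled ribosomes, was at 9.24, 9.26, 9.17 and 9.39 in HFD, against 8.99, 8.71 and 8.44 in ND (0.55, SE 0.13, adjusted p = 0.0385). Impact, which competes with GCN2 for GCN1, was at 7.66, 7.61, 7.45 and 7.54 in HFD, against 7.86, 8.15 and 8.42 in ND (−0.58, SE 0.13, adjusted p = 0.0353). The groups did not overlap in either, but a Gcn1 probe set almost as bright, at 8.96, differed by −0.09 and a dim one by −0.04. Ppp1r15a, a subunit that directs a phosphatase to eIF2, was lower on every HFD array without passing (−0.16, adjusted p = 0.18), and Ppp1ca, the catalytic subunit, had a change of 0.21 (adjusted p = 0.123).

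Of 19 genes of the integrated stress response, none rose and 2 fell, with a median change of −0.06. The share called, 10.5%, stands against 5.35% of all genes and 9.45% of those at or above the median signal. Slc7a5, an amino acid transporter, was at 9.05, 8.92, 8.98 and 9.12 in HFD, against 9.34, 9.53 and 9.61 in ND (−0.48, SE 0.09, adjusted p = 0.0293). Atf4, the transcription factor translated when eIF2 is phosphorylated, was at 11.62, 11.45, 11.63 and 11.57 in HFD, against 11.74, 11.94 and 11.93 in ND (−0.30, adjusted p = 0.0452). A dimmer Atf4 probe set differed by 0.05. Ddit4, an inhibitor of mTORC1 signalling, had a change of 0.62 with overlapping arrays (adjusted p = 0.0725), and Atf5 one of 0.36 (adjusted p = 0.132).

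None of 14 genes of mTORC1 and the eIF4E kinases passed in limma (4 at an unadjusted p under 0.05), where 5.35% of all genes did. Of the 14 changes 11 were negative, with a median of only −0.07, while 56% of all genes had a positive change. Pdcd4, an inhibitor of eIF4A, was at 11.72, 11.62, 11.58 and 11.61 in HFD, against 11.84, 11.85 and 12.11 in ND (−0.30, adjusted p = 0.0533). Mknk2, a kinase of eIF4E, was also lower on every HFD array (−0.24, adjusted p = 0.0766), while Mtor (0.19, adjusted p = 0.181) and Mknk1 (0.21, adjusted p = 0.205) were higher on every HFD array, without passing.

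Of 18 partners without an Eif symbol, 2 rose and 1 fell (16.7% called, against 5.35% of all genes and 9.45% at or above the median signal). The helicases Ddx3x (0.48, SE 0.09, adjusted p = 0.0267) and Dhx36 (0.58, SE 0.09, adjusted p = 0.0224) rose on their brightest probe sets, while the other probe sets differed by 0.06 and −0.12 for Ddx3x and by 0.14 for Dhx36. The poly(A)-associated protein gene Larp4 fell (−0.72, SE 0.16, adjusted p = 0.0347), and its other probe sets differed by 0.14 and −0.07. Abcf1, which binds eIF2, had a change of 0.35 (adjusted p = 0.0775).

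Of 16 elongation and release genes, 2 rose and none fell (12.5% called, against 5.35% of all genes and 9.45% at or above the median signal). Both encode subunits of the exchange factor for eEF1A. Eef1d was at 11.67, 11.88, 11.91 and 11.91 in HFD, against 11.63, 11.46 and 11.28 in ND (0.39, SE 0.09, adjusted p = 0.044), and its other probe set differed by 0.36. Eef1g was at 10.55, 10.47, 10.50 and 10.51 in HFD, against 10.20, 10.29 and 10.05 in ND (0.33, SE 0.08, adjusted p = 0.0442), and its dim probe set differed by 0.03. Etf1, the release factor, changed by 0.20 (adjusted p = 0.288) and the mitochondrial elongation factor gene Tufm by 0.13 (adjusted p = 0.306).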

How the data were processed

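The authors deposited log2 values of 45141 probe sets on 8 arrays, made with RMA and affy per the submitters' processing notes. Their versions are not given in the sources used here. Values ran from 3.56 to 13.5, and quartiles agreed within 0.04, so a change in total RNA per cell would not be visible. Detection calls were not used here. Amplified RNA may not keep the ratios of the original RNA, and signals of different probe sets are not amounts of RNA on one scale.

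Of 29449 probe sets in the platform annotation, 28898 name 1 gene. For 28689 of these the Entrez identifier was found in RefSeq and the symbol given there was used, whether or not it differed. Each gene was represented by its brightest probe set over the 7 arrays, which gave 17097 genes. HFD 1 to 4 and ND 1 to 3 were compared in limma 3.58.1 under R 4.3.3 (lmFit, eBayes with trend, 10.3 total degrees of freedom), with Benjamini-Hochberg adjustment over all genes at 0.05. The fit was tested on simulated data in which genes varied independently. Those data hold no shift shared across an array, so they cannot show how such a shift affects the calls. Members, lists and the rule for named genes were chosen with earlier results of these data known. Named with every array were members past the threshold, members whose diets do not overlap and members with an opposed probe set. Eif2s3y and the 3 brightest members were given as levels, and up to 4 genes per pathway list were named by smallest p, not all with every array. Per-array values of Eif4e, Eif4ebp1, Eif5 and other probe sets were added after their values were seen, as was the choice of motifs. Alternatives were all 8 arrays, each array left out, the specimen number as a block, other normalizations, variance models, array weights, a filter on dim genes, averaged probe sets, a fit of every probe set, 2 covariates and a threshold of 0.10. Figures were drawn with matplotlib 3.10.9.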

Additional observations from a re-analysis of the deposited data

Results flagged for a closer look

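Among the 4 HFD arrays, 1 of the 37 members had an array far from the others by Dixon's criterion, which chance meets in about 1 in 20 groups. Eif4a3, the helicase of the exon junction complex, was at 9.81 on HFD 3, against 10.05, 10.03 and 10.04 on HFD 1, 2 and 4, and at 9.85, 9.90 and 9.82 on ND 1 to 3. Its change of 0.13 was not past the threshold with that array in (adjusted p = 0.441).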

How the results depend on the processing

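The count of members past the threshold (6 of 37, with 914 of all genes) depended on single arrays, with 0 to 6 members and 6 to 1072 genes when 1 array was left out. With ND 4 included 0 members and 6 genes passed (6 members at an unadjusted p under 0.05). With the 3′ minus 5′ covariate 0 members and 0 genes passed (1 member unadjusted), and with the keratinocyte covariate 0 members and 20 genes (6 members unadjusted). The mean of probe sets gave 2 members, Eif2b4 and Eif3b, and 400 genes. Both members have a single probe set, so averaging could not alter their values. Eif1a, Eif6, Eif2s2 and Eif4ebp2, which have several, did not pass. Testing every probe set gave 8 of 82 member probe sets and 1374 of all 28898. The filter on dim genes gave 1387 of 8554 genes and 6 of 35 members. The threshold of 0.10 gave 1947 of 17097 genes and 6 of 37 members. The other normalizations, variance models and array weights kept 5 or 6 members. The specimen number as a replicate block left 0 members and 1 gene (7 members unadjusted), and with all 8 arrays 0 members and 0 genes (6 members unadjusted). The labels do not say that equal numbers pair the samples. Deviations of same-numbered arrays correlated at −0.18, −0.29 and −0.05, and those of other pairs at −0.17 to 0.26. With so few arrays per diet these values cannot show whether same-numbered samples shared a batch.

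Over 19 settings the 6 members kept their sign in 113 of 114 cases and passed in 51. The exception was Eif4ebp2, at 0.068 (adjusted p = 0.717) in the mean of probe sets. Many of the kept signs were fixed in advance. The diets do not overlap in these 6, so leaving out or weighting arrays cannot reverse a sign. The variance models and the filter on dim genes leave each change as it was, as averaging does for Eif2b4 and Eif3b. Eif4e2, not past the threshold, was at −0.054 with the 3′ minus 5′ covariate. The median change of the members ranged from 0.06 to 0.12 without single arrays. The causes were not tested. The number of arrays limits precision.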

Other observations

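ND 4, which the labels exclude and which entered no comparison above, lay within the range of the HFD arrays for 4 of the 6 members past the threshold. It read 9.52 for Eif3b, 9.18 for Eif6, 9.49 for Eif4ebp2 and 9.96 for Eif2s2. For Eif1a it read 9.29, between the diets, and for Eif2b4 7.57, within the ND range. Over all genes past the threshold it lay within the HFD range for 54.9%, between the diets for 33.7% and within the ND range for 6.46%. Among the 11 members whose diets did not overlap it lay within the HFD range for 8, against 52.2% of all such genes. Its 3′ minus 5′ difference was −0.37 and its keratinocyte mean 6.97.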
